A study of Mus musculus with 6 samples.

Results

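Noncoding small nucleolar RNA (snoRNA) host genes are spliced genes that carry snoRNAs in their introns. Those described here are Gas5, Snhg1, Snhg3, Snhg5, Snhg6, Snhg8, Snhg12, Snhg15, Snhg20 and Zfas1, 10 genes chosen by their symbols among the 22081 genes of an RNA-seq table of mouse muscle stem cells (MuSCs). Of these, 9 had a row in the table, and all 9 reached a mean of 5 normalized counts, the minimum for a test, as did 18562 genes in all. Snhg3 had no row and was not analysed here. Normalized counts are read counts that the authors divided by a factor per library to make libraries comparable, and they do not correct for gene length.

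When such a host is spliced, the intron that is cut out is trimmed to a snoRNA, which guides the chemical modification of other RNAs, mostly ribosomal RNA in the nucleolus. Box C/D snoRNAs guide the methylation of ribose, and box H/ACA snoRNAs guide the conversion of uridine to pseudouridine. The joined exons of many of these hosts encode no conserved protein, are removed by nonsense-mediated decay, and begin with a run of pyrimidines like that of the messenger RNAs for ribosomal proteins. Gas5 was named for its rise in growth-arrested cells, and Zfas1 for its place antisense to the start of Znfx1.

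MuSCs were sorted fresh from limb and trunk muscles of adult C57BL/6 mice as cells without SCA1, CD45 and CD31 that carried integrin alpha 7 or a Pax7-driven green fluorescent reporter. The study reports that its sorted cells, when reanalysed, did not reach full purity. Taf4asKO mice had both alleles of Taf4 (formerly Taf4a, a subunit of the general transcription factor TFIID) flanked by loxP sites, carried a tamoxifen-inducible Cre recombinase driven by Pax7 and received tamoxifen, so recombination depends on Pax7 expression. Controls, called WT in the sample titles, were littermates on the same background that also carried the floxed alleles, with or without the Cre. Each group had 3 libraries, made from 10 ng of total RNA. The study used mice of both sexes, but the age, sex and Cre status behind each library and the number of mice per library were not given in the sources used here. These sources also do not state whether the control mice of these libraries received tamoxifen, so treatment may differ together with genotype. The study describes its replicates in general as biological, and the labels do not tie each library to a mouse or a pool of mice, so p-values measure the spread between these libraries.

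Taf4 was at 613, 534 and 478 normalized counts in the control libraries and at 631, 565 and 574 in the libraries labelled Taf4asKO. The groups overlapped and the mean was 109% of control (log2 fold change 0.13, adjusted p = 0.52 by limma). These totals thus show no loss of Taf4 in the libraries labelled Taf4asKO. In isolated MuSCs, the study reports deletion of internal exons by genomic PCR, with near-complete loss of the transcript and the protein. The totals also count reads over the exons that remain, and reads over the deleted exons alone were not analysed here. They can therefore neither show nor exclude the deletion in these libraries. "Taf4asKO libraries" therefore stands for libraries with that label throughout. The 10 MuSC markers summed to 42535 to 45321 in control and 43280 to 45599 in Taf4asKO libraries, with 4 lower (Myf5, Itga7, Cd34 and Cdh15) and 2 higher (Vcam1 and Sdc4) past the threshold. Markers of other cells differed between the groups. The 5 Schwann cell markers summed to 1175 to 2907 and to 3513 to 4271, with 4 higher. The 7 fibro-adipogenic markers summed to 13053 to 15622 and 7303 to 11711, with Col15a1 and Dpt lower, while Pdgfra, Dcn, Lum, Smoc2 and Ly6a had higher means in Taf4asKO libraries that did not pass the test. The 7 endothelial markers summed to 881 to 1301 and 1402 to 1745 with no call, and the 4 of 7 immune markers with a row to 434 to 547 and 667 to 926 with Cd74 lower. The higher immune sum came from Lyz2, at 94, 357 and 320 in control and 465, 729 and 483 in Taf4asKO libraries, which did not pass the test. Cd68, Csf1r and Cd74 had lower means in Taf4asKO libraries. Of the 5 smooth muscle and pericyte markers, summing to 8642 to 13631 and 13611 to 15906, 2 were higher (Myh11 and Rgs5). The 6 myofibre markers (1193 to 3772 and 2141 to 2712) and the 3 tendon markers (815 to 4934 and 2500 to 5912) overlapped, with no call. With libraries paired by replicate number as a block, the counts of higher markers were 5 for Schwann, 4 for fibro-adipogenic, 4 for smooth muscle and pericyte, 2 for endothelial, 2 for tendon and 1 for immune cells. Their part in the results below was not tested, and in bulk RNA fewer cells of a type and less RNA per cell cannot be told apart.

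The promoters of the hosts are shown because TAF4A, the protein named in the labels, belongs to TFIID, the complex that recognises core promoters, where a TATA sequence about 30 bases before the start is a classic element. The study found TAF4A binding at all known types of core promoter, with no clear preference, and assumes that it mainly detected TAF4A outside TFIID. It also cites earlier work in which promoters with TATA depended less on TAF4A. A link between TATA and the changes below was not tested. The stretches below run from 60 bases before to 20 bases after the start given by RefSeq (build GRCm38.p6), 5′ to 3′ on the strand of the gene. Capitals mark TATA where it starts 20 to 40 bases before the transcription start, a window chosen with the sequences in view. The first 3 hosts fell and carry it, Snhg15 fell and does not, and Snhg5 and Snhg8 carry it but did not pass the test. Zfas1 and Snhg20, whose windows are not printed, do not carry it and did not pass the test. For Gas5 the downstream of its RefSeq windows is shown, and the other held no such TATA.
Gas5, chr1:161035106-161035185, + strand: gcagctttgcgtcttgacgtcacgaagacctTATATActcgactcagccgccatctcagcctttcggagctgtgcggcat
Snhg12, chr4:132308618-132308697, + strand: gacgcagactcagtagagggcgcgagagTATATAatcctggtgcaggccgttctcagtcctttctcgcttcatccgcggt
Snhg1, chr19:8723427-8723506, + strand: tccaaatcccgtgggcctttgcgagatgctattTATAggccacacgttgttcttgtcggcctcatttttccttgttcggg
Snhg15, chr11:6528741-6528820, − strand: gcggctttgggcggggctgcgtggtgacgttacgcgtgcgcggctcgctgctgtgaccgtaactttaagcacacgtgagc
Snhg5, chr9:88522878-88522957, − strand: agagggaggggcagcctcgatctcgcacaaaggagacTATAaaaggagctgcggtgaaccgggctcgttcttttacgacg
Snhg8, chr3:123508317-123508396, − strand: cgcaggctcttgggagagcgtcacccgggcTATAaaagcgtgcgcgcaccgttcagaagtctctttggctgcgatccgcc

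RefSeq windows were found for 9 of the 10 hosts (all but Snhg6), and 5 of these 9 held TATA at that place in at least 1 window, against 6.908% of 27025 genes with a window. Since that place was chosen with the host sequences in view, these shares describe the hosts and do not test them. TATA reads the same on both strands. CCAAT, searched on both strands over the 300 bases of the window, was found in 3 of the 9 hosts (Snhg3, Snhg5 and Snhg8) and in 41.06% of all genes. GGGCGG, searched in the same way, was found in 7 of the 9 hosts and in 38.2% of all genes. The start of the TATA was 29 bases before the start in Gas5, 32 in Snhg12, 27 in Snhg1, 30 in Snhg8 and 23 in Snhg5. A match is a description of letters and not evidence of binding.

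The 5′ ends of annotated transcripts (GENCODE M21) are shown because a terminal oligopyrimidine tract couples these RNAs to the control of ribosomal protein synthesis. An end was counted when its first base is C and at least 4 pyrimidines follow. By this rule 6 of the 9 hosts had at least 1 transcript with a tract, as did 8.639% of 18532 tested genes with annotated transcripts, and 12 of 83 host transcripts had one, beside 2.128% of the 87681 transcripts of those genes. Capitals mark the tract.
Gas5: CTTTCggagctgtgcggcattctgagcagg
Snhg12: CCTTTCTCgcttcatccgcggtccctgtct
Snhg6: CTTTCTCggcagcgccgtagagcgcgagca
Zfas1: CCTTTCgttccggcggctcctagagcgttt
Snhg5: CTTTTacgacggagcctaagatattctttg
Snhg8: CCCTCgcgcgcaggctcttgggagagcgtc

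No annotated end of Snhg1, Snhg15 or Snhg20 met the rule. The Gas5 end above was shared by 4 of its 25 transcripts, and the ends of Snhg6, Zfas1, Snhg5 and Snhg8 each came from 1 transcript. The Snhg8 end begins upstream of the promoter stretch printed for Snhg8, and so before its TATA. The start given by RefSeq lies downstream of that TATA and reads ctctttggct, letters that also meet the rule. The tract printed for Snhg8 and its TATA thus belong to different starts. Hosts with a tract thus fell (Gas5, Snhg12 and Snhg6) or did not pass the test (Zfas1, Snhg5 and Snhg8), and hosts without one fell (Snhg1 and Snhg15) or did not pass the test (Snhg20).

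Gas5 was by far the most abundant of the hosts and carried most of the change. Its normalized counts were 1922, 1953 and 1855 in the control libraries and 841, 759 and 759 in the Taf4asKO libraries. Every Taf4asKO library was thus below every control library, and the spread within each group was small (1910.0 ± 50.1 and 786 ± 47.3, SD, n = 3 each). Gas5 (ENSMUSG00000053332, chromosome 1, 161034607 to 161038539, + strand, mm10) fell to 41.2% of control, a log2 fold change of −1.28 (standard error 0.093) with an adjusted p of 8.2e-05 by limma.

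Snhg12 and Snhg6 fell with it. Snhg12 (ENSMUSG00000086290, chromosome 4, 132308678 to 132311024, + strand), host of several H/ACA snoRNAs and of Snord99, was at 409, 541 and 441 in control and at 272, 224 and 232 in Taf4asKO libraries. The groups did not overlap, and the log2 fold change was −0.93 (standard error 0.14, adjusted p = 0.0031). Snhg6 (ENSMUSG00000098234, chromosome 1, 9941959 to 9944118, − strand), host of Snord87, was at 104, 143 and 70 in control and at 59, 41 and 46 in Taf4asKO libraries. Its control libraries spread widely, although none reached down to the Taf4asKO libraries, and the log2 fold change was −1.06 (standard error 0.28, adjusted p = 0.033).

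Snhg1 and Snhg15 fell as well. Snhg1 (ENSMUSG00000108414, chromosome 19, 8723475 to 8726443, + strand), which carries the largest number of snoRNA rows after Gas5, was at 428, 468 and 391 in control and at 317, 268 and 248 in Taf4asKO libraries. It had a log2 fold change of −0.63 (standard error 0.13, adjusted p = 0.014). Snhg15 (ENSMUSG00000085156, chromosome 11, 6527899 to 6528746, − strand), host of Snora9, was at 70, 72 and 86 in control and at 46, 51 and 37 in Taf4asKO libraries. Its groups did not overlap either, and at a log2 fold change of −0.76 (standard error 0.22, adjusted p = 0.048) it lay just inside the threshold.

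The remaining 4 hosts did not pass the test. Zfas1 (ENSMUSG00000074578, chromosome 2, 167062934 to 167065862, + strand) was at 298, 411 and 290 in control and at 255, 220 and 241 in Taf4asKO libraries. Its groups did not overlap, but its log2 fold change of −0.46 (95% interval −0.81 to −0.11) had an adjusted p of 0.082. Snhg5 (ENSMUSG00000097195, chromosome 9, 88521050 to 88522929, − strand) was at 478, 586 and 424 against 463, 437 and 446. Snhg8 (ENSMUSG00000104960, chromosome 3, 123507552 to 123508404, − strand) was at 213, 188 and 188 against 201, 143 and 188. Both overlapped between groups, with log2 fold changes of −0.13 (95% interval −0.43 to 0.16) for Snhg5 and −0.16 (−0.52 to 0.20) for Snhg8. Snhg20 (ENSMUSG00000086859, chromosome 11, 117076790 to 117078955, + strand) was the only host with a higher mean in the Taf4asKO libraries, at 48, 77 and 52 against 61, 87 and 79. Its groups overlapped, and its log2 fold change of 0.37 (95% interval −0.18 to 0.92) had an adjusted p of 0.36.

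**Figure D1:**
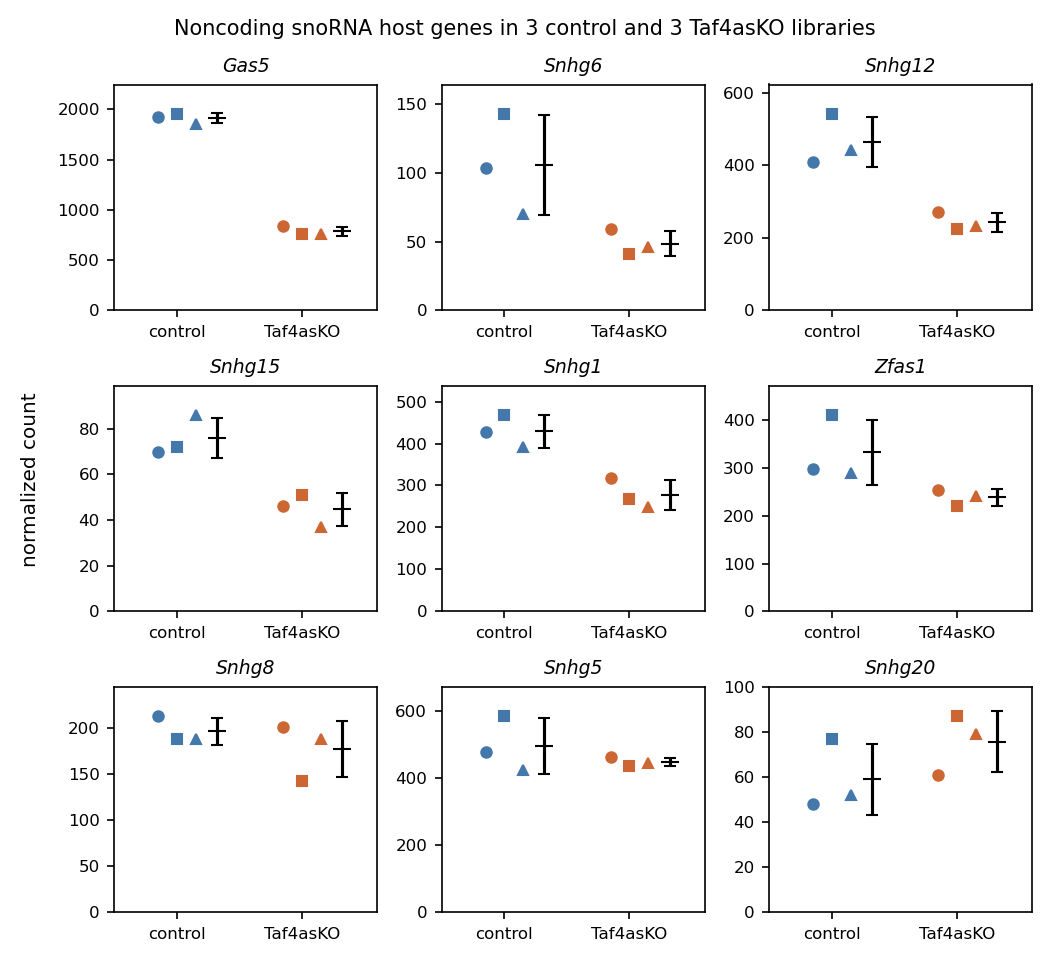
Normalized count (y axes, each from 0) of the 9 hosts in the 3 control (blue) and 3 Taf4asKO (orange) libraries, ordered by log2 fold change. Circles, squares and triangles are replicates 1, 2 and 3, and the bar beside each group is its mean with the SD. Gas5 separates the groups most widely, Zfas1 separates them narrowly, and Snhg8, Snhg5 and Snhg20 overlap.

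In all, 5 of 9 hosts were lower past the threshold (adjusted p below 0.05 with at least a 1.3-fold change), against 6.71% of the 18562 genes tested. None of the 9 was higher past the threshold by limma, and 5.93% of all genes were. At an unadjusted p under 0.05, 0 of 9 were higher, against 14.6% of all genes. All 3 Taf4asKO libraries lay below all 3 control libraries in 6 of 9 hosts, against 16.4% of genes, and all 3 lay above in 0 of 9, against 16.6%. The median log2 fold change of the 9 hosts was −0.63, beside 0.004 for all genes tested. The members were listed with earlier results of these data known, so these counts describe the list and do not test it.

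Of the 5 calls, 2 did not depend on any single library. Gas5 and Snhg12 stayed lower past the threshold without each of the 6 libraries. Snhg1 lost its call without Taf4asKO replicate 2 (adjusted p = 0.073) or replicate 3 (0.078). Snhg6 kept it only without control replicate 3, and its adjusted p was between 0.058 and 0.129 without each of the others. Snhg15 kept it only without control replicate 2, lost it with adjusted p-values of 0.075 to 0.189 without each of the others, and also lost it when libraries were scaled to the same total (0.052). Zfas1 passed the test only under upper-quartile scaling (0.045). Control replicate 2 was the highest control library for 7 of the 9 hosts and for 76 of 78 ribosomal protein genes, and without it 4 hosts were called.

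**Figure D2:**
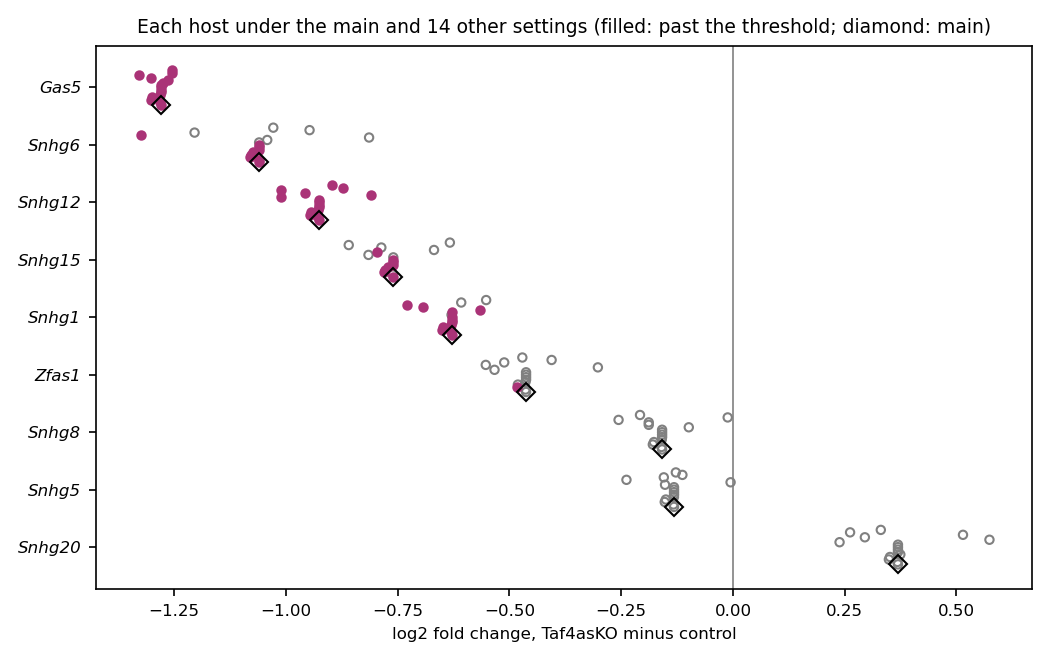
Log2 fold change of each host (x axis, Taf4asKO minus control) in the fit as reported (open diamond) and under 14 other settings (circles, filled where the host passed the threshold). Every value of Gas5 and Snhg12 is filled, Snhg6, Snhg15 and Snhg1 are partly open, and no host crosses 0.

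The summed level of the hosts shows how much of the change was Gas5. The 9 hosts together summed to 3970, 4439 and 3797 in control and to 2515, 2230 and 2276 in Taf4asKO libraries. Gas5 supplied 47.1% ± 2.69 of this sum in control and 33.6% ± 0.374 in Taf4asKO libraries (SD, n = 3 each), and 65.0% of the fall of the mean sum. Without Gas5 the other 8 hosts summed to 2159 ± 288 and 1554 ± 106 (SD, n = 3 each), which is 72.0% of control.

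Levels can be compared between hosts only per length. Per kilobase of the longest annotated transcript without a retained intron, the mean level in control libraries was 2872 normalized counts for Gas5, 605 for Snhg1, 494 for Snhg5, 451 for Zfas1, 372 for Snhg8, 301 for Snhg12, 129 for Snhg6, 113 for Snhg15 and 27.4 for Snhg20. Neighbours in this order overlapped between libraries for Snhg1 and Snhg5, Snhg5 and Zfas1, Zfas1 and Snhg8, and Snhg6 and Snhg15. The order depends on the length taken: over all annotated exons together, which for these genes include retained introns, Gas5 remained first with 508 per kilobase and Snhg1 came to 144, below Snhg5 at 287.

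The snoRNAs inside the hosts had rows of their own. GENCODE M21 places 18 snoRNA genes with a Snord or Snora symbol inside the 10 hosts, 10 of them box C/D and 8 box H/ACA, and 6 of the 18 had a row. A further 14 rows with the biotype snoRNA but other symbols lie inside Gas5, Snhg1 and Zfas1 on the same strand. These libraries were made from total RNA with random priming, so reads at a snoRNA position can come from the snoRNA or from host RNA that still holds the intron, and these cannot be told apart. Of these snoRNAs, 16 of the 18 with a Snord or Snora symbol share bases with exons of annotated host transcripts, and the authors dropped reads that overlapped more than 1 gene. The further 14 rows lie inside such exons over their whole length. With this annotation, that rule would leave such rows almost no reads, yet Gm22357 had 489, 499 and 445 in control libraries. The counting or annotation behind these rows is thus not known, which limits every comparison of a host with its snoRNA rows.

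The box C/D snoRNAs below are examples from each host with snoRNA rows. In Gas5 and Snhg1 they include rows that fell and, with Snord47, a row that did not pass the test. They are the transcript sequences of GENCODE M21, 5′ to 3′. Capitals mark the last CTGA, the letters of box D, and the first TGATGA, the core letters of box C, where that exact string is present. For the box H/ACA snoRNA Snora24 they mark the last ACA.
Snord78 in Gas5: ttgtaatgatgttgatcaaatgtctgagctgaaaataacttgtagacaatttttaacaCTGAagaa
Gm23212 in Gas5: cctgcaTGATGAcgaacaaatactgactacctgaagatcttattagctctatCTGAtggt
Snord47 in Gas5: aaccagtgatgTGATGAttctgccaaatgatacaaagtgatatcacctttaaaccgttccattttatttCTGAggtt
Gm22680 in Snhg1: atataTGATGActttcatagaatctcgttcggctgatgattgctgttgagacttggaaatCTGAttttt
Gm24452 in Snhg1: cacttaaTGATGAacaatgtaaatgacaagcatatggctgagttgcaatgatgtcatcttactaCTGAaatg
Snord87 in Snhg6: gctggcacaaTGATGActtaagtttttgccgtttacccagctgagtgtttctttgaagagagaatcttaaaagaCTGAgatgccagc
Snord12 in Zfas1: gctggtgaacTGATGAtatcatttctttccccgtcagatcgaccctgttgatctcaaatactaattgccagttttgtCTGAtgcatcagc
Snora24 in Snhg8: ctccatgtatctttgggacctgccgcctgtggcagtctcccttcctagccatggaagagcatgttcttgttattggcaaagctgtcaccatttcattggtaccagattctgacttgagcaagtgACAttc

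Inside Gas5, 4 of 8 snoRNA rows fell. Snord78 was at 143, 139 and 145 in control and at 68, 58 and 66 in Taf4asKO libraries, with no overlap (log2 fold change −1.14, adjusted p = 0.0025). Gm23212 was at 140, 135 and 153 against 64, 75 and 70 (−1.02, adjusted p = 0.0041). Gm26224 was at 113, 80 and 73 against 46, 32 and 45 (−1.09, adjusted p = 0.019). The most abundant, Gm22357, was at 489, 499 and 445 against 290, 323 and 330, and fell at a log2 fold change of −0.60 (adjusted p = 0.0085).

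The other 4 rows inside Gas5 did not pass the test. Snord47 was at 69, 62 and 55 against 56, 29 and 41, Gm22489 at 22, 19 and 21 against 6, 10 and 13, Gm25789 at 20, 17 and 9 against 10, 3 and 18, and Mir5117, which the table classes as a snoRNA, at 26, 24 and 29 against 22, 19 and 24. Gm26224 lost its call without control replicate 1 (adjusted p = 0.061) or Taf4asKO replicate 2 (0.090) or 3 (0.058), and the other 3 calls held without each library. Together the 8 rows summed to 976 ± 46.0 in control and 573 ± 30.4 in Taf4asKO libraries (SD, n = 3 each), 58.7% of control, beside 41.2% for the host.

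Inside Snhg1, 2 of 7 snoRNA rows fell. Gm22680 was at 30, 23 and 31 against 10, 10 and 8 (log2 fold change −1.48, adjusted p = 0.016), and Gm24452 at 62, 43 and 47 against 30, 25 and 23 (−0.93, adjusted p = 0.044). Snord22 was at 73, 47 and 51 against 36, 23 and 52 and did not pass the test, with overlapping groups. Among the settings that leave out a library, Gm24452 kept its call without control replicate 2 only, and it also lost the call when libraries were scaled to the same total (0.059), and Gm22680 lost its call without Taf4asKO replicate 2 (0.054) or 3 (0.072). The other 4 rows had log2 fold changes of −0.89 (Gm22744), −0.48 (Gm25894), −0.17 (Gm23246) and −0.08 (Gm24453). The 7 rows summed to 225 ± 42.4 and 135 ± 17.8 (SD, n = 3 each), 60.1% of control beside 64.7% for the host.

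Snord87, the snoRNA of Snhg6, overlapped between the groups where its host did not. It was at 114, 95 and 83 in control and at 82, 92 and 143 in Taf4asKO libraries, while Snhg6 fell to 46.1% of control. The log2 ratio of host to snoRNA was −0.13, 0.58 and −0.24 in control and −0.47, −1.15 and −1.62 in Taf4asKO libraries, and the groups of ratios did not overlap (two-sided exact permutation test, p = 0.1, the smallest that 3 against 3 libraries allow). Snord12, Gm25878 and Gm23201 inside Zfas1 had log2 fold changes of −0.04, −0.02 and −0.18, and Snora24 inside Snhg8, at 36, 45 and 36 against 41, 33 and 43, of 0.00. None of these 5 rows passed the test.

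**Figure D3:**
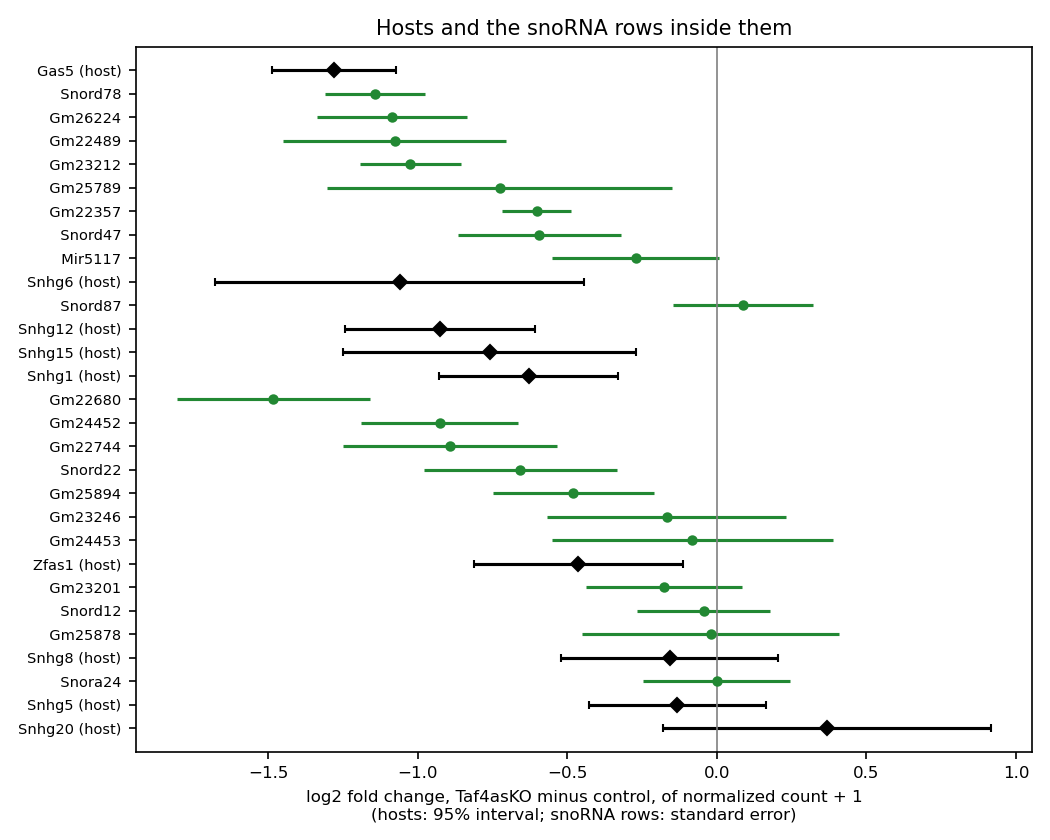
Log2 fold change (x axis, Taf4asKO minus control) of each host (black diamonds, 95% interval) and of the snoRNA rows inside it (green circles, standard error), with hosts ordered by their fold change. The rows inside Gas5 and Snhg1 lie below 0, and Snord87, the row inside Snhg6, lies at 0.09 while its host lies at −1.06.

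Over the 20 snoRNA rows inside the hosts, 6 were lower past the threshold by limma and 0 were higher past it, and 19 of 20 had a log2 fold change below 0, with a median of −0.60. The other 191 snoRNA and small Cajal body RNA rows tested had 4 lower and 4 higher, with a median of −0.16. In 16 of 20 pairs the log2 fold change of the host was below that of its snoRNA row. These pairs share 5 hosts, and the split was 8 of 8 in Gas5, 3 of 7 in Snhg1, 3 of 3 in Zfas1 and 1 of 1 each in Snhg6 and Snhg8. In 5 pairs the ratios of the groups did not overlap, and after adjustment over the 20 pairs the smallest exact permutation p was 0.4. In these pairs the log2 ratio of host to snoRNA was lower in Taf4asKO libraries for Gm22357, Mir5117, Snord47 and Snord87. It was higher for Gm22680 in Snhg1, by 0.85.

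Genes that share a start region with a host showed their own values. The kit keeps strand, but whether the counting used it is not given in the sources used here, so reads of overlapping genes on opposite strands cannot be assigned with certainty. Distances between starts are those of GENCODE M21, in which Gas5 starts further upstream than in the table. Zbtb37, a zinc finger gene that starts 427 bases from Gas5 on the opposite strand, was at 672, 662 and 767 in control and at 484, 511 and 502 in Taf4asKO libraries, and fell by 0.49 on the log2 scale (adjusted p = 0.016), a call that it lost without any of the 3 Taf4asKO libraries. Slc3a2, the heavy chain of amino acid transporters, starts 106 bases from Snhg1 and was at 1297, 1347 and 1390 against 1394, 1295 and 1338, a log2 fold change of 0.00 (95% interval −0.20 to 0.20). That interval lies above the interval of Snhg1 (−0.93 to −0.33).

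The start of Znfx1, an RNA helicase-like zinc finger gene, lies 81 bases from that of Zfas1. Znfx1 was at 1198, 1148 and 1068 in control and at 1386, 1376 and 1303 in Taf4asKO libraries. The groups did not overlap and the log2 fold change was 0.25, which did not pass the test (adjusted p = 0.11). Mcmdc2, which overlaps the end of Snhg6 on the opposite strand, was at 40, 11 and 41 against 17, 11 and 13 and did not pass the test, except without control replicate 2 (adjusted p = 0.015). Beside Snhg3, Rcc1, the exchange factor for the nuclear GTPase Ran, overlaps it on the same strand and fell from 339, 343 and 246 to 147, 125 and 120 (log2 fold change −1.23, adjusted p = 0.0018). Gm17300, antisense to Snhg3, was at 29, 45 and 38 against 30, 15 and 25 and did not pass the test (adjusted p = 0.20).

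Other noncoding snoRNA hosts were measured beside the listed ones. Of 13, 10 had a row and 9 were tested, of which 4 were lower past the threshold and 0 higher (0 also at an unadjusted p under 0.05), with a median log2 fold change of −0.49. With libraries paired by replicate number as a block, 5 were lower, since Meg3, an imprinted noncoding RNA, then passed the test (log2 fold change −0.49, adjusted p = 0.018 against 0.107 without the block). Snhg4, named after its values were seen, was at 63, 61 and 54 in control and at 14, 19 and 24 in Taf4asKO libraries (−1.62, adjusted p = 0.0051). Snhg17 was at 352, 498 and 424 against 232, 229 and 259 (−0.81, adjusted p = 0.0067). Epb41l4aos fell by 0.90 and Rian, an imprinted transcript with many C/D snoRNAs, fell by 0.48 on the log2 scale. Epb41l4aos lost its call without Taf4asKO replicate 2 or 3. Rian lost it without control replicate 1 or any Taf4asKO library, under scaling to the same total (adjusted p = 0.092) and under upper-quartile scaling (0.051). The count was 2 without Taf4asKO replicate 2 or 3.

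Protein-coding genes that carry snoRNAs, found from the annotation, were lower past the threshold in 33 of 67 and higher in 0, with 2 higher at an unadjusted p under 0.05. Many of them encode ribosomal proteins, and the falls included those of Rpsa (−1.32) and Rcc1 (−1.23). Without the ribosomal protein genes, 12 of 43 were lower, with a median log2 fold change of −0.18 and falls led by Rcc1, Rack1 (a ribosome-bound scaffold, −1.17) and Nop53 (a factor of large subunit assembly, −0.97). The 12 became 6 without Taf4asKO replicate 2 and 7 without replicate 3.

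Messenger RNAs known to begin with the same kind of tract were counted next. Of 78 cytosolic ribosomal protein genes, 70 were lower past the threshold and 0 higher (1 at an unadjusted p under 0.05), with a median log2 fold change of −0.77. The falls included those of Rplp1 (−1.55) and Rpl28 (−1.34). Of 16 other such messenger RNAs, 12 were lower and 0 higher, at any unadjusted p under 0.05 too, with a median of −0.58 and falls led by Rack1, Eef1b2 (an elongation factor subunit, −0.96) and Hnrnpa1 (a splicing regulator, −0.77). This 12 became 7 without Taf4asKO replicate 2 or 3. Across all tested genes with at least 1 annotated pyrimidine-tract end, 10.87% were lower past the threshold and 6.246% higher, against 6.326% and 5.906% of those with none. Ribosomal protein genes made up 32 of the 174 lower genes with a tract, and without them the lower shares were 9.068% and 6.117%. In the ribosomal protein genes themselves, 32 of 35 with such an annotated end and 38 of 43 with none were lower.

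Proteins that package snoRNAs bind either box C/D or box H/ACA snoRNAs or assemble these particles. Among 19 snoRNP core and assembly proteins, 1 (5.26%, beside 6.71% of all genes) was lower past the threshold and 0 were higher (1 at an unadjusted p under 0.05). This was Nhp2, an H/ACA core protein, at 231, 324 and 245 in control and 156, 176 and 166 in Taf4asKO libraries (log2 fold change −0.67, adjusted p = 0.022). It lost this call without any of the 3 Taf4asKO libraries. Fbl, the methyltransferase of C/D particles, was at 366, 508 and 355 against 324, 261 and 278 (−0.50, adjusted p = 0.071) and passed it when replicate numbers were paired as a block (0.043) and under 3 other scalings (0.039 to 0.048). Values of the other core proteins did not pass the test: Nop56 (−0.30), Nop58 (−0.03), Snu13 (0.19), the pseudouridine synthase Dkc1 (−0.18), Nop10 (0.39) and Gar1 (−0.33).

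Factors that act on the exons and tracts of these hosts were called in shares near those of all genes, 6.71% lower and 5.93% higher. Of 15 genes of nonsense-mediated decay, 1 was lower (6.67%) and 1 higher. Smg9, a partner of the kinase Smg1, was lower (−0.50, adjusted p = 0.025) and Casc3, an exon junction component, was higher (0.38, adjusted p = 0.023). Each lost its call without control replicate 1 or 3 or any Taf4asKO library. Casc3 also lost it under 2 other scalings, which brought its fold change below 1.3. Upf1, the central helicase, had a log2 fold change of −0.14 and Smg1 of 0.15, and neither passed the test. Of 14 regulators of pyrimidine-tract RNAs, 1 was lower (7.14%) and 1 higher. Larp1, which binds the capped tract, was at 2800, 2935 and 2497 in control and at 2134, 2002 and 1932 in Taf4asKO libraries and fell by 0.44 on the log2 scale (adjusted p = 0.017). Without Taf4asKO replicate 2 or 3 it lost the call. Tial1, which binds uridine-rich RNA, was higher (0.43, adjusted p = 0.031) but lost the call without control replicate 3 or any Taf4asKO library, and Mtor (−0.02) did not pass the test.

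**Figure D4:**
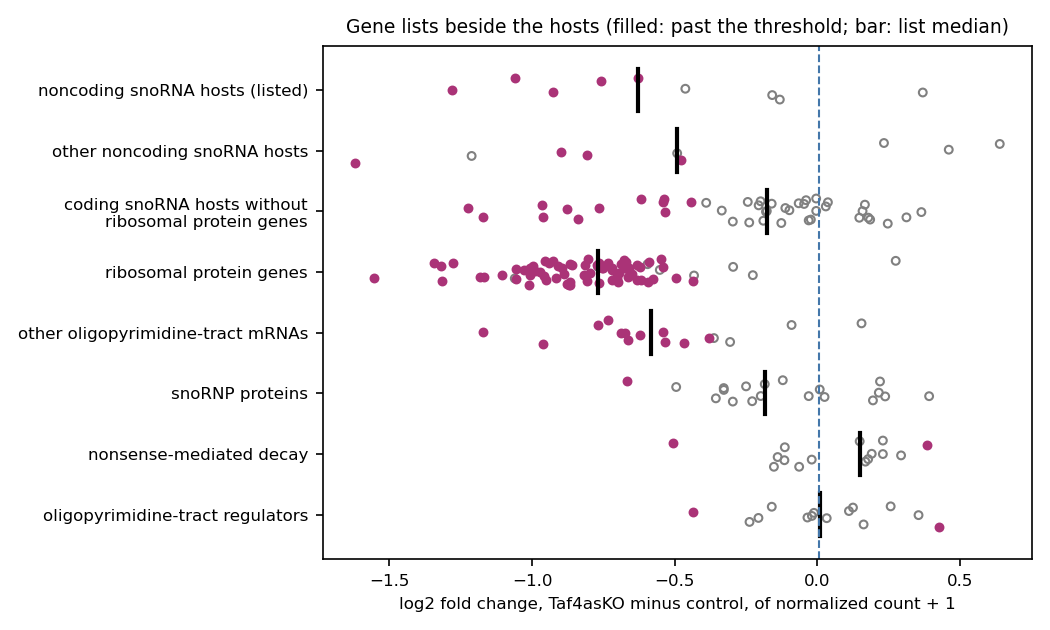
Log2 fold change (x axis, Taf4asKO minus control) of each tested gene in 8 gene lists. Filled points passed the threshold, black bars are list medians and the dashed line is the median of all 18562 genes. Points of the 9 listed hosts spread from −1.28 to 0.37, those of the ribosomal protein genes gather around −0.77, and the 3 lists at the bottom have medians from −0.18 to 0.15.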

How the data were processed

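RNA was taken from sorted MuSCs, and stranded total RNA libraries were sequenced from 3 control and 3 Taf4asKO samples. According to the study's methods and the submitters' processing notes, the authors trimmed reads with Trimmomatic 0.39, aligned them to mm10 with STAR 2.6.0c, removed multi-mapping reads, and counted reads over exons with featureCounts 1.6.0, leaving out those that overlapped several genes. The deposited values are counts normalized by the authors with DESeq2 1.14.1 and rounded to whole numbers. The deposited score values are thus counts that the authors scaled, and since raw counts and depth per library were not used here, no counting interval is given. Low values carry the larger relative counting error.

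Genes whose mean reached 5 were tested on log2(value + 1) with limma 3.58.1 in R 4.3.3 (moderated test with a trend, two-sided), and p-values were adjusted by Benjamini-Hochberg over all 18562 genes. The threshold was an adjusted p below 0.05 with at least a 1.3-fold change. Fold changes of low genes are understated by the added 1. Ratios of hosts to snoRNA rows were compared by exact permutation. Host positions were compared with GENCODE M21. The table's positions differ from it for Gas5, Snhg12, Snhg15 and Snhg20, and the table's own positions are given for the hosts. Table IDs were found in M21 for 22042 of 22081 rows. Promoter sequences are from RefSeq.

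The replicate numbers come from the sample titles. Over all tested genes, departures from the group mean correlated between control and Taf4asKO libraries of equal number at 0.23, 0.13 and 0.15, each above 0.1, so the numbers were taken to pair the libraries, and a model that blocks on this number was fitted as an alternative. Alternatives were other scalings, pseudocounts, filters, variance shrinkage, a stricter threshold, the block, and leaving out each library. The hosts and all gene lists were chosen with earlier results of these data known. Genes named are all hosts, all snoRNA rows inside them and genes overlapping or facing their starts, up to 3 largest falls and rises per list among called genes averaging 50 or more, and fixed core factors. A gene that this rule names is not reported here. Kansl2 was also fixed and fell by 0.62 on the log2 scale (adjusted p = 0.035 by limma), a call lost without any of the 3 Taf4asKO libraries.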

Additional observations from a re-analysis of the deposited data

How the results depend on the processing

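Of 126 values of single hosts under alternative settings, 109 kept their direction and side of the threshold, 16 fell short of it, 1 newly passed it and none changed sign. The number of lower hosts (5) was 4 to 6 under the scalings, pseudocount, filter and shrinkage settings, 5 with pairing by replicate block, 2 at an adjusted p under 0.01 and 2 to 4 without single libraries. The number of higher hosts stayed 0 under every setting. The settings were also applied, after seeing the data, to 35 other named genes, of which 25 were called, and 13 of these kept the call without each library. The block added the call of Fbl, so that the number of lower snoRNP proteins went from 1 to 2. It also moved the lower counts from 4 to 5 for other noncoding hosts (Meg3), 33 to 36 for coding hosts, 12 to 13 for those without ribosomal protein genes and 70 to 73 for ribosomal protein genes. Scaling to the same total also gave 2 lower snoRNP proteins, and left 0 higher pyrimidine-tract regulators in place of 1. Without single libraries, the lower counts were 2 to 5 for other noncoding hosts, 6 to 13 for coding hosts without ribosomal protein genes, 7 to 13 for other pyrimidine-tract messenger RNAs, and 0 to 1 for snoRNP proteins, decay factors and pyrimidine-tract regulators. The higher counts were 0 to 1 for coding hosts with or without ribosomal protein genes, decay factors and pyrimidine-tract regulators. With 2 libraries in a group fewer degrees of freedom remain. Among all genes the block gave 1667 lower and 1688 higher, against 1246 and 1101 without it, and an adjusted p under 0.01 gave 545 and 331. Counting error was not measured, and Snhg15, Snhg20 and many snoRNA rows had values under 100.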
